A study of Homo sapiens with 5 samples.

Results

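The p53 target genes beyond CDKN1A are a set of 37 genes that p53, the transcription factor mutated in many tumours, is known to switch on in human cells. They were taken as the rows whose gene symbol is one of 37 fixed names, out of 64252 gene identifiers in the table, and were grouped by function without use of their counts. Of the 37 genes, 36 had enough counts to be tested, among 15341 tested genes in all, and 1, GDF15, did not.

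RNA was sequenced from RPE-1 cells, a human retinal pigment epithelial line immortalized with telomerase, whose genotype is labelled WT. Every library came from cells collected 48 hr after transfection with siRNA at 5 µM, either a negative control (siCtrl, 3 libraries) or a pool against FAM53C (siFAM53C, 2 libraries), and polyadenylated RNA was measured. All libraries thus share 1 cell line, 1 time point and 1 transfection procedure, and a pool does not separate the siRNAs it holds. Nothing in the sources used here says that libraries of a condition came from separate cultures, so that p-values measure the spread between these libraries, which may be technical.

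When DNA is damaged or growth signals go wrong, p53 is released from its inhibitor MDM2 and binds a pair of adjacent half-sites in the DNA of its target genes. The targets act at several levels: some hold the cell cycle, some repair DNA, some lower the threshold for cell death, and others adjust metabolism or signal to neighbouring cells. CDKN1A, which encodes the cyclin-dependent kinase inhibitor p21, is the target best known for the arrest in G1, and the comparison below asks what the rest of the programme did upon FAM53C knock-down.

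Sequence was examined first. The rule used names only, but the names are those of known p53 targets. A larger share with a p53 site than over all genes is therefore not an independent result. A p53 site was searched for as 20 bases made of the p53 half-site motif in tandem with no spacer, on both strands, within 2500 bases of each gene's start, with up to 2 mismatches and with the core C and G of each half-site kept. Such a site was present at 15 of the 37 members (40.5%) and at 737 of 19550 protein-coding genes (3.77%). With at most 1 mismatch the numbers were 7 members (18.9%) and 101 genes (0.517%), and with 0 mismatches 2 members (5.41%) and 13 genes (0.0665%). The sites below, from the hg38 sequence, are those with at most 1 mismatch, other than that of RRM2B, and that of AEN. The capitals mark the site, the small letters 5 bases on each side, and each is written 5′ to 3′ on the strand of its gene.
PLK2, 0 mismatches, chr5:58462274-58462293 on the minus strand, first base at -2207 from the start, outside the gene: atgagAAACATGCCTGGACTTGCCCtgcac
ZMAT3, 0 mismatches, chr3:179070188-179070207 on the minus strand, in an intron: tcataAAACAAGTCCAGACATGCCTaggca
CCNG1, 1 mismatch, chr5:163437926-163437945 on the plus strand, in an intron: tgtgaGCACAAGCCCAGGCTAGTCCgaggc
GADD45A, 1 mismatch, chr1:67686775-67686794 on the plus strand, in an intron: gtacaGAACATGTCTAAGCATGCTGgggac
EDA2R, 1 mismatch, chrX:66638713-66638732 on the minus strand, in an intron: tctgaGAACATGCCTGGACGTGTCCaacaa
DDB2, 1 mismatch, chr11:47214969-47214988 on the plus strand, overlapping an exon: gctccAAGCTGGTTTGAACAAGCCCtgggc
AEN, 2 mismatches, chr15:88621306-88621325 on the plus strand, first base at -34 from the start: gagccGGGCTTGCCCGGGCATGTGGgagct

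A match to the motif is a description of the sequence and not of binding. RRM2B also held a site with 1 mismatch, and ACER2, BTG2, CMBL, FAS, GDF15, SPATA18 and TNFRSF10B held sites with 2. In the shorter RefSeq promoters of GRCh38.p14, from 250 bases before to 50 after the start, 30 of the 37 members were matched by symbol, and 8 of them (26.7%) held a perfect half-site, as did 2202 of all 27305 promoters (8.06%). These 8 were PLK2, SESN1, FAS, DDB2, ABHD4, RPS27L, AEN and FDXR. The promoter of DDB2 also held a full site with 0 mismatches and a spacer of 1 base. Members with a site near the start and members without one had close median fold changes upon FAM53C knock-down. The 14 tested members with a site had a median log2 fold change of 0.0411, and 0 were past the threshold. The 22 without one, among them SESN1, ABHD4, RPS27L and FDXR with a promoter half-site, had a median of 0.0379, and 1, KITLG, was called lower. Over all tested genes 0.404% were called higher and 3.21% lower (edgeR adjusted p under 0.05).

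Libraries held between 19260124 and 25615415 counts on genes. FAM53C itself had 60.9, 59.7 and 57.6 CPM (counts relative to the library total, scaled by TMM factors) in siCtrl and 14.2 and 22.3 CPM in siFAM53C, which gives -1.71 as the log2 fold change (standard error 0.2, edgeR adjusted p = 0.005078, here and below from the quasi-likelihood test with p-values adjusted by Benjamini-Hochberg over all tested genes). Genes of the line, such as KRT8, KRT18, VIM, FN1 and TERT, were detected in all libraries. Of the markers of pigment epithelium, the transcription factors MITF (713 to 1053 counts) and OTX2 (281 to 403 counts) were expressed in every library, while RPE65, which marks the mature pigment epithelium, was at 0, and RLBP1, TYR and the epithelial genes CDH1 and EPCAM had at most 4 counts in any library, and BEST1 had 4 to 15. A further difference between libraries did not follow the siRNA. On the first principal component, which held 39.8% of the variance, siCtrl 3 (33.7) and siFAM53C 2 (44.9) lay apart from siCtrl 1 (-31.5) and siCtrl 2 (-47.4), with siFAM53C 1 (0.264) midway between them. Each condition was therefore split along this component, and values are also given within each of the 2 sides, as siFAM53C 1 against siCtrl 1 and 2, and as siFAM53C 2 against siCtrl 3. Also given is a fit that carries the side as a term, a choice made once the data had been seen. As siFAM53C 1 lay no nearer to siCtrl 1 and 2 than to the others, and was set beside them only as the lower library of its condition, the values within sides and the calls with the side term rest on that placing. In the deposited column names, though not in the titles, siCtrl 3 and siFAM53C 2 share a number, and siCtrl 1 and siFAM53C 1 share one in both. What these numbers stand for is not given in the sources used here.

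The members as a group did not move one way. Of the 36 tested, 19 had a log2 fold change above 0 and 17 below, with a median of 0.0379, beside 0.0162 over all tested genes. The median of the members rested on single libraries, at -0.189 without siFAM53C 1 and 0.144 without siFAM53C 2. Values ran from -0.888 (KITLG) to 0.629 (ACER2), and 28 were within 0.5 of 0. By the quasi-likelihood test of edgeR, 0 members were higher and 1 was lower, KITLG, which is 2.78% of those tested. Over all genes 0.404% were called higher and 3.21% lower. DESeq2 called 0 members higher and 3 lower (KITLG, RRM2B and BLOC1S2), beside 1.93% and 6.74% of the genes for which it gave an adjusted p.

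At an unadjusted p under 0.05 in the edgeR fit, 3 members were higher (ZMAT3, AEN and XPC) and 5 lower (KITLG, RRM2B, BLOC1S2, CCNG2 and TP53INP1), that is 8.33% and 13.9% of those tested, where 6.54% and 10.5% of all genes were. Both siFAM53C libraries lay above every siCtrl library in CPM for 8 members (22.2%), PLK3, XPC, POLH, FAS, AEN, CROT, ACER2 and ANKRA2, and for 16.7% of all genes. They lay below every siCtrl library for 5 members (13.9%), CCNG2, RRM2B, TP53INP1, KITLG and BLOC1S2, and for 18.8% of all genes. In the other 23 members the conditions overlapped. These shares are near those of all genes.

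**Figure D1:**
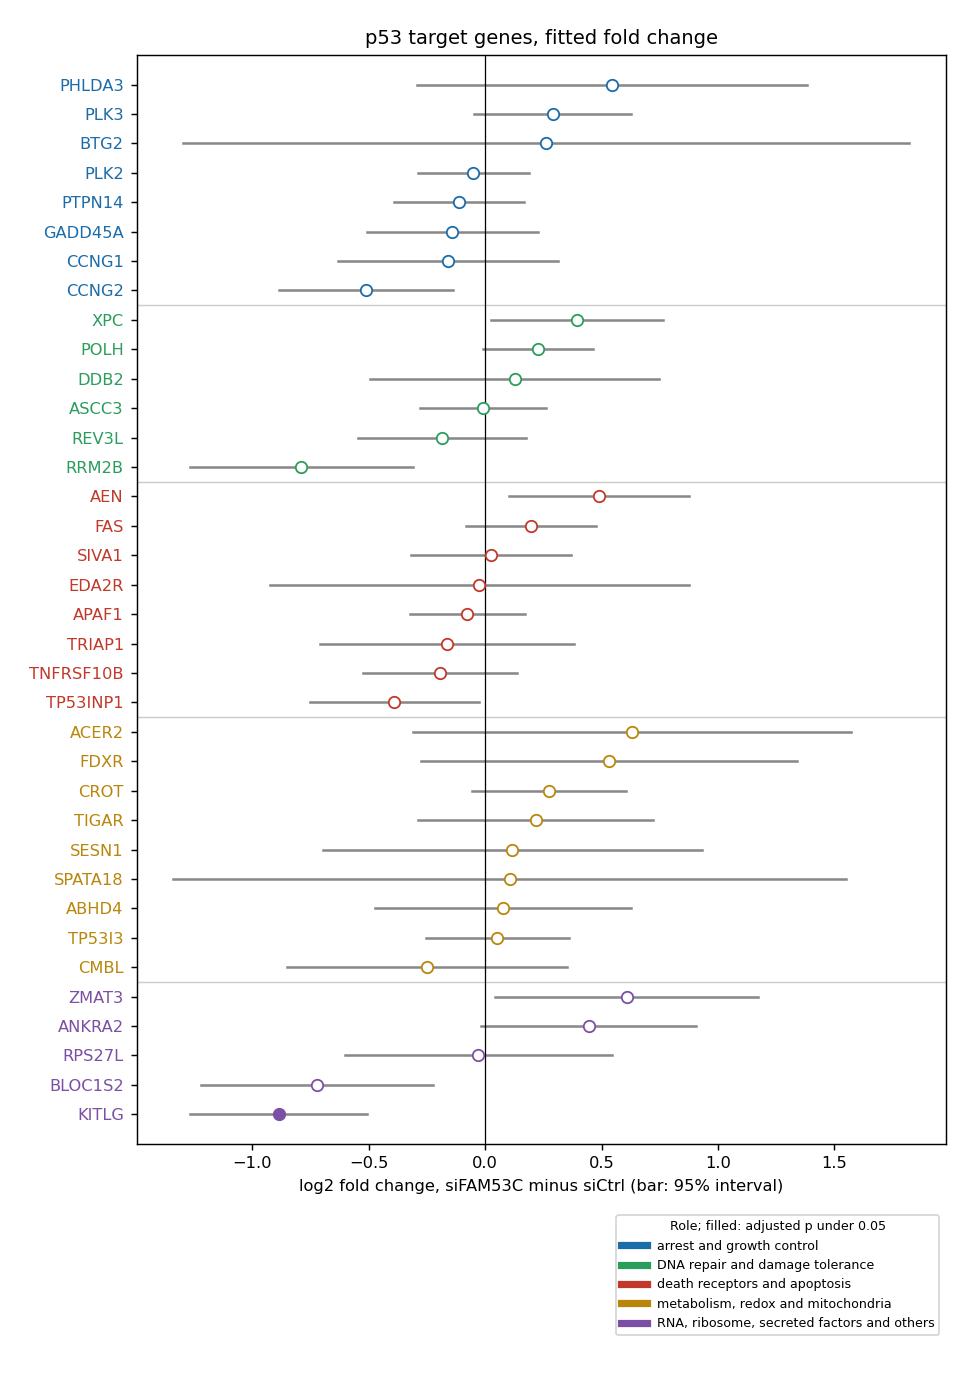
The log2 fold change of siFAM53C against siCtrl from the edgeR fit (x axis) for each of the 36 tested members (y axis, ordered within roles), with bars for the 95% confidence interval and a filled point where the adjusted p is under 0.05. Points lie on both sides of 0, from -0.888 for KITLG to 0.629 for ACER2, and KITLG is the only filled one.

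Among the 8 members that act in arrest and growth control, 3 were above 0 and 5 below, with a median log2 fold change of -0.0822, and 0 were past the threshold (1 lower, CCNG2, at an unadjusted p). PLK2, a polo-like kinase induced by stress, had the highest level per length of all members, with 422, 431 and 466 TPM (counts per exon length relative to the library) in siCtrl and 455 and 427 TPM in siFAM53C. Its values overlapped and its log2 fold change was -0.05 (95% confidence interval -0.29 to 0.188). CCNG1, cyclin G1, which feeds back on MDM2, was second with 194, 216 and 153 TPM in siCtrl and 207 and 145 TPM in siFAM53C. Here the lower value of each condition came from the side of siCtrl 3 and siFAM53C 2, and the fold change of -0.16 had an interval from -0.631 to 0.311.

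CCNG2, an atypical cyclin linked to withdrawal from the cycle (chromosome 4, 77157207 to 77433388, plus strand), had 17.1, 17 and 20.1 CPM in siCtrl and 12.7 and 12.6 CPM in siFAM53C. Both siFAM53C values were under all 3 controls. Its log2 fold change was -0.51 (standard error 0.16, edgeR adjusted p = 0.1585), with -0.421 and -0.672 within the sides, and it passed the threshold in the fit with the side term (edgeR adjusted p = 0.03072). PHLDA3, which keeps the kinase AKT from the membrane, went the other way with 87.1, 77.5 and 40.1 CPM in siCtrl and 130 and 69.7 CPM in siFAM53C. The conditions overlapped, with siCtrl 3 and siFAM53C 2 each the lowest of their condition. The fold change of 0.55 had a standard error of 0.36, and was 0.656 and 0.795 within the sides.

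BTG2, an antiproliferative factor that recruits the deadenylation machinery, had the widest spread of the class. It had 8.87, 5.70 and 1.94 CPM in siCtrl and 10.1 and 3.10 CPM in siFAM53C, so that each condition spanned more than the difference between them, and the fold change of 0.26 had a standard error of 0.66. The other members were at -0.14 (GADD45A, a stress sensor that holds the cell cycle), -0.11 (PTPN14, a phosphatase that restrains the coactivator YAP) and 0.29 (PLK3, a second stress-responsive polo-like kinase).

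Among the 6 members of DNA repair and damage tolerance, 3 were above 0 and 3 below, with a median of 0.0583, and 0 were past the threshold. The most distant from 0 was RRM2B, the p53-inducible small subunit of ribonucleotide reductase, which supplies deoxynucleotides outside S phase. It had 43.8, 51.9 and 35.3 CPM in siCtrl and 29.1 and 21.3 CPM in siFAM53C, with no overlap. The log2 fold change was -0.79 (standard error 0.2, edgeR adjusted p = 0.09866), with -0.711 and -0.724 within the sides. DESeq2 (adjusted p = 0.0105) and the fit with the side term (edgeR adjusted p = 0.001903) called it lower.

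XPC, which recognises distorted DNA at the start of nucleotide excision repair (chromosome 3, 14145147 to 14178621, minus strand), had 45.1, 38.4 and 38.0 CPM in siCtrl and 61.1 and 45.3 CPM in siFAM53C. Both siFAM53C values were above every control, though siFAM53C 2 exceeded siCtrl 1 by little. Its value on the log2 scale was 0.39 (standard error 0.16, edgeR adjusted p = 0.2629), with 0.553 and 0.252 within the sides. XPC has 1140 exon bases in common with an annotated gene of the other strand, and the strand setting of the counting is not given in the sources used here. DDB2, the partner that finds ultraviolet lesions, was at 0.13, POLH, the translesion polymerase eta, at 0.23, REV3L, the catalytic subunit of polymerase zeta, at -0.19, and ASCC3, a helicase in alkylation repair, at -0.01.

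Among the 8 members of the death receptor and apoptosis class, 3 were above 0 and 5 below, with a median of -0.051, and all 8 were within 0.5 of 0. AEN, a nuclease that promotes apoptosis (chromosome 15, 88621337 to 88632281, plus strand), had 77.5, 71.7 and 57.5 CPM in siCtrl and 109 and 84.5 CPM in siFAM53C. The conditions did not overlap, and the order of the sides was the same in both. The log2 fold change was 0.49 (standard error 0.16, edgeR adjusted p = 0.1926), with 0.547 and 0.555 within the sides, and the fit with the side term called it higher (edgeR adjusted p = 0.001282).

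TP53INP1, a stress protein of apoptosis and autophagy, had 18.5, 21.6 and 18.0 CPM in siCtrl and 14.6 and 14.9 CPM in siFAM53C. All control values were above both siFAM53C values, with a log2 fold change of -0.39 (standard error 0.15, edgeR adjusted p = 0.2606) and -0.449 and -0.269 within the sides. TNFRSF10B, a receptor for the death ligand TRAIL and the third highest member per length, had 182, 182 and 157 TPM in siCtrl and 177 and 140 TPM in siFAM53C. Its fold change was -0.20 (95% confidence interval -0.526 to 0.136), and the conditions overlapped. FAS, the other classical death receptor, was at 0.20, with 54.8, 58.6 and 67.1 CPM against 69.7 and 68.3 CPM.

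The remaining 4 members of this class were closer to 0 or more variable. EDA2R, a receptor for ectodysplasin, was at -0.03 with a standard error of 0.38, APAF1, the scaffold of the apoptosome, at -0.08, SIVA1, a pro-apoptotic adaptor, at 0.02, and TRIAP1, a mitochondrial protein that restrains apoptosis, at -0.17. Exon bases shared with genes on the opposite strand numbered 1899 for FAS, 1213 for PTPN14, 750 for APAF1, 693 for REV3L and 377 for TNFRSF10B, to which the same limit applies as to XPC. SESN1, POLH, TP53INP1, ANKRA2, ABHD4, TIGAR, PLK3, TP53I3 and KITLG had fewer, from 363 for SESN1 down to 80 for TP53I3 and KITLG.

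Of the 9 members that act in metabolism, redox and mitochondria, 8 were above 0 and 1 below, with a median log2 fold change of 0.117, and medians of 0.347 and 0.0963 within the sides. None passed the threshold: in edgeR 0 were higher or lower, also at an unadjusted p under 0.05, and DESeq2 called 0. The same 8 members were above 0 within both sides, but TIGAR, SESN1, FDXR, TP53I3, ABHD4 and SPATA18 were below 0 without siFAM53C 1. FDXR, the mitochondrial ferredoxin reductase, had 18.1, 22.3 and 11.7 CPM in siCtrl and 33.4 and 16.8 CPM in siFAM53C. Its conditions overlapped, with siCtrl 3 and siFAM53C 2 again the lower ones, and the fold change of 0.53 (standard error 0.34) was 0.73 and 0.518 within the sides.

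ACER2, an alkaline ceramidase of the Golgi, had the highest fold change of all members on very few reads, with 43, 23 and 37 counts in siCtrl and 84 and 46 counts in siFAM53C. In CPM this is 1.83, 1.20 and 1.94 against 3.17 and 1.95, so that siFAM53C 2 exceeded siCtrl 3 only in the last digit. Its value on the log2 scale was 0.63 (standard error 0.4, edgeR adjusted p = 0.4909), and 1.05 and 0.00978 within the sides. The fold change was 0.22 for TIGAR, a phosphatase that lowers glycolytic flux, 0.12 for SESN1, a sestrin that restrains mTORC1, and 0.05 for TP53I3, a quinone oxidoreductase. It was 0.27 for CROT, a peroxisomal carnitine acyltransferase, 0.08 for ABHD4, a lipid hydrolase, 0.11 for SPATA18, a factor of mitochondrial quality control, and -0.25 for CMBL, a cytosolic hydrolase.

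The last class, of RNA-binding, ribosomal, secreted and other factors, held both the called member and several of those farthest from 0, with 2 tested members above 0 and 3 below. KITLG, the ligand of the receptor tyrosine kinase KIT (ENSG00000049130, chromosome 12, 88492793 to 88580851, minus strand), had 50.1, 52.3 and 55.1 CPM in siCtrl and 33.2 and 23.5 CPM in siFAM53C, from 1180, 1000 and 1051 counts against 878 and 554. The controls were close together, at 52.5 ± 2.49 CPM (SD, n = 3), and both siFAM53C libraries were far under them, at 28.3 ± 6.84 CPM (SD, n = 2). On the log2 scale KITLG fell by 0.888 (standard error 0.16, edgeR adjusted p = 0.03239).

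The direction of KITLG was the same within both sides, -0.624 and -1.22, and without any 1 library. The call was not: without siCtrl 1 the edgeR adjusted p was 0.1191, without siCtrl 2 it was 0.1347, and without siFAM53C 2 the log2 fold change was -0.66 and the adjusted p 0.1735. Scaled by library totals alone, the log2 fold change was -0.82 (edgeR adjusted p = 0.05024). DESeq2 (adjusted p = 0.0001745) called it, as did the fit with the side term (edgeR adjusted p = 0.001458).

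BLOC1S2, a subunit of a complex that forms lysosome-related organelles (chromosome 10, 100273280 to 100286680, minus strand), had 61.8, 65.0 and 41.0 CPM in siCtrl and 37.1 and 30.7 CPM in siFAM53C. No siFAM53C value reached a control, but siCtrl 3 was nearer to siFAM53C than to the other controls. The log2 fold change was -0.72 (standard error 0.21, edgeR adjusted p = 0.1397), with -0.771 and -0.414 within the sides. DESeq2 (adjusted p = 0.02689) and the fit with the side term (edgeR adjusted p = 0.00337) called it lower.

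ZMAT3, an RNA-binding zinc finger protein and the bearer of the perfect intronic site shown above (chromosome 3, 178960121 to 179072215, minus strand), had 106, 131 and 79.6 CPM in siCtrl and 194 and 127 CPM in siFAM53C. The conditions overlapped, since siFAM53C 2 lay just below siCtrl 2. Its value on the log2 scale was 0.61 (standard error 0.24, edgeR adjusted p = 0.2595), with 0.719 and 0.677 within the sides, and the fit with the side term called it higher (edgeR adjusted p = 0.0008325). PLK2, which holds the other site with 0 mismatches and no spacer, had one of the smallest fold changes of all members.

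ANKRA2, an ankyrin repeat protein, was at 0.44 with no overlap, from 8.40, 11.1 and 11.4 CPM to 13.7 and 14.3 CPM (edgeR adjusted p = 0.3132). RPS27L, a paralogue of a ribosomal protein, was at -0.03. GDF15, a secreted stress cytokine, had 3, 0 and 8 counts in siCtrl and 0 and 0 in siFAM53C, which is too few for a comparison. Named pseudogenes that could share reads exist for CCNG1, CCNG2, POLH, TRIAP1, ACER2 and BLOC1S2, whose values are less certain for that reason.

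**Figure D2:**
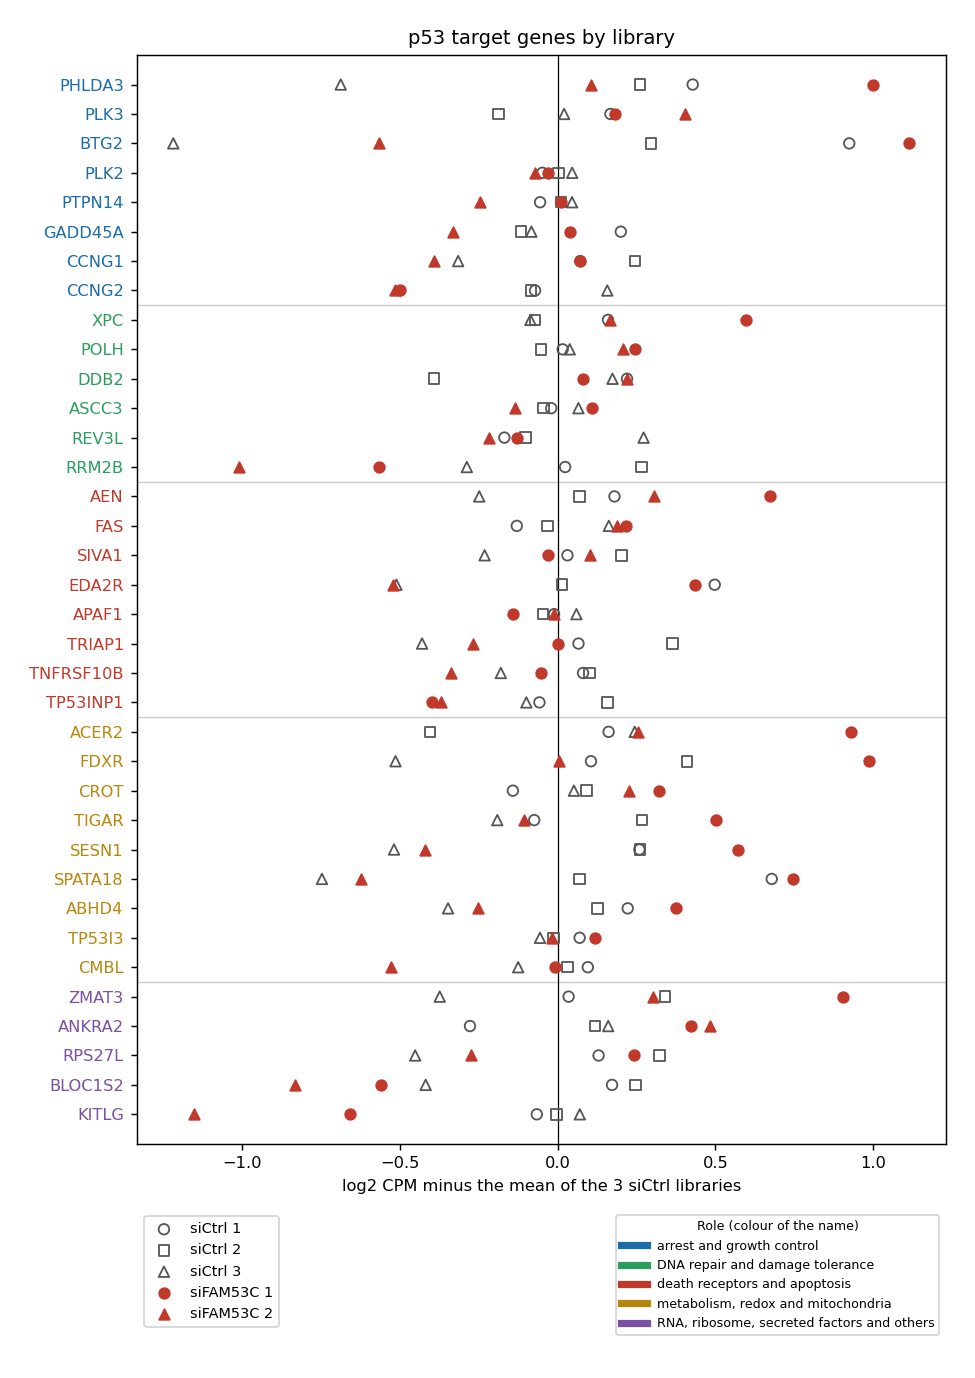
The log2 CPM of each tested member minus its mean over the 3 siCtrl libraries (x axis), with 1 symbol per library and members ordered by role (y axis). Open and filled symbols overlap for most members, and the triangles of siCtrl 3 and siFAM53C 2 lie to the left of the other symbols of their condition for 19 of the 36.

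Within a condition the members differed together. siCtrl 3 was the lowest control for 21 of 36 members, siFAM53C 2 was under siFAM53C 1 for 30, and 19 members (52.8%) did both, beside 28.8% of all tested genes. The opposite, siCtrl 3 the highest control and siFAM53C 2 above siFAM53C 1, held for 2 members (5.56%), beside 29.4% of all genes. The median difference over the members was -0.169 for siCtrl 3 minus the mean of siCtrl 1 and 2, and -0.326 for siFAM53C 2 minus siFAM53C 1, in log2 CPM, where over all genes both were close to 0 (0.00249 and 0.00537).

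These differences were -1.83 and -1.68 for BTG2, larger than the fitted fold change of any member between the conditions. They were -1.12 and -1.37 for SPATA18, and -1.03 and -0.894 for PHLDA3. SESN1 (-0.779 and -0.995), FDXR (-0.772 and -0.984) and EDA2R (-0.768 and -0.958) were alike in both, and those of ZMAT3 were -0.561 and -0.603. Across the 36 members, the difference between the controls and that between the siFAM53C libraries had a Pearson's r of 0.81, and 0.371 across all tested genes. Those points share the 5 libraries and their scaling, and genes are not independent replicates. What set the libraries apart was not tested, and in bulk RNA fewer cells that express a gene and less RNA per cell cannot be told apart.

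**Figure D3:**
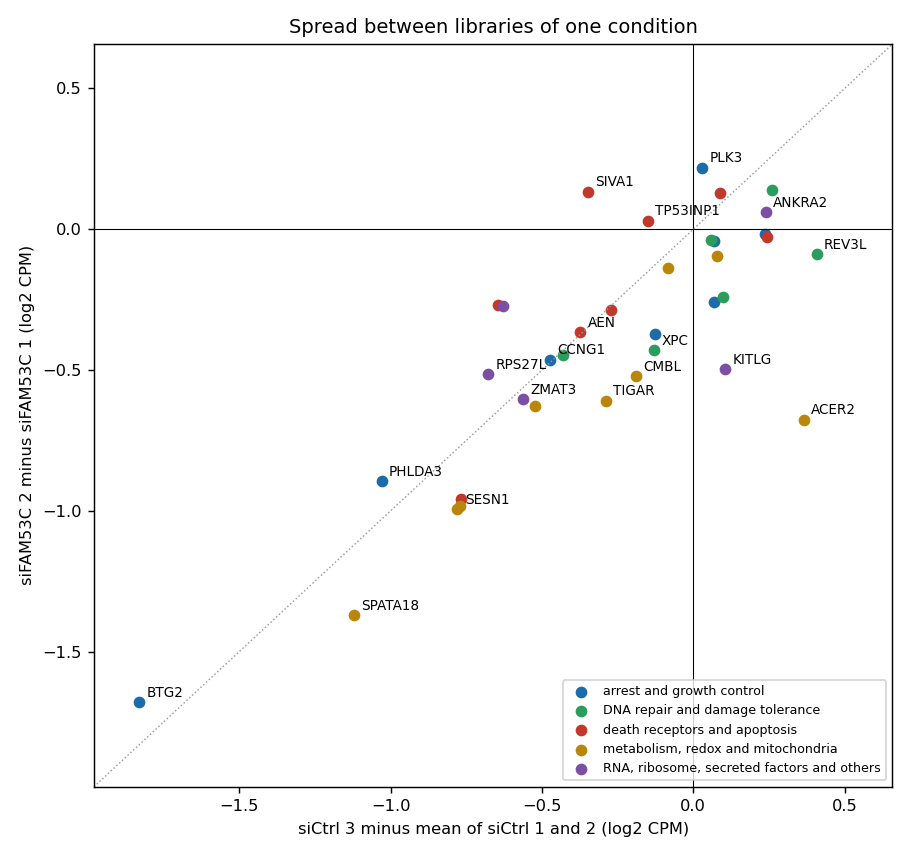
Each point is a member: its log2 CPM in siCtrl 3 minus the mean of siCtrl 1 and 2 (x axis) against siFAM53C 2 minus siFAM53C 1 (y axis). Most points lie at the lower left, down to -1.83 and -1.68 for BTG2, and they rise together with an r of 0.81 across 36 genes.

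With the side term in the fit, more members passed the threshold in both directions. The quasi-likelihood test of edgeR then called 5 higher (13.9%), PHLDA3, XPC, AEN, FDXR and ZMAT3, and 4 lower (11.1%), CCNG2, RRM2B, KITLG and BLOC1S2. Over all genes, that fit called 5.67% higher and 9.73% lower. Its log2 fold changes were 0.71 for PHLDA3 (edgeR adjusted p = 0.0003959), 0.70 for ZMAT3 and 0.64 for FDXR (edgeR adjusted p = 0.01232). The term was chosen after seeing the data and leaves few libraries to measure the spread.

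Within the sides, 19 of the 36 members were above 0 in both, 11 below 0 in both, and 6 differed in sign. Over all 15341 tested genes these numbers were 5531, 5086 and 4718. The values of the 2 sides had an r of 0.761 across the 36 members and 0.322 across all tested genes. The sides were set from these same data, with siFAM53C 1 midway, and genes are not independent replicates. This r is therefore a description and not a repeat of the result. Members more than 0.5 from 0 in both sides were PHLDA3, ZMAT3, AEN, FDXR and BTG2 above, and KITLG and RRM2B below. The share of all genes beyond that size in both sides was not computed.

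**Figure D4:**
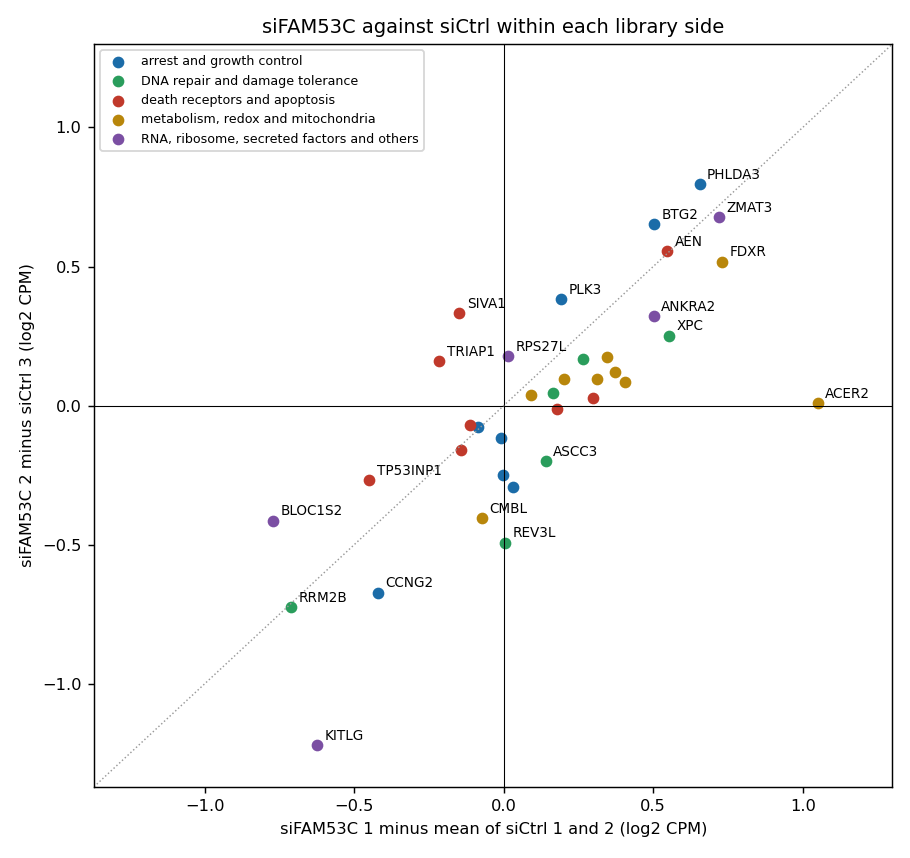
The difference between siFAM53C 1 and the mean of siCtrl 1 and 2 (x axis) against that between siFAM53C 2 and siCtrl 3 (y axis), in log2 CPM, for the 36 tested members, coloured by role. Members spread along the diagonal from KITLG (-0.624 and -1.22) to PHLDA3 (0.656 and 0.795), while ACER2 is high on the x axis only (1.05 and 0.00978).

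Levels per length differed widely between the members. In siCtrl, the mean was 440 ± 23.2 TPM (SD, n = 3) for PLK2, 188 ± 31.6 for CCNG1, 174 ± 14.4 for TNFRSF10B and 124 ± 15.2 for GADD45A. PLK2 stood above the spread of all other members, while CCNG1 and TNFRSF10B did not differ beyond theirs. PHLDA3 (82.4 ± 28.8 TPM), TRIAP1 (82.1 ± 20.1 TPM) and BLOC1S2 (75.3 ± 16.0 TPM) came next and overlapped. The median over the 37 members was 31.8 TPM, the value of RRM2B. At the low end were ACER2 (2.36 ± 0.607 TPM), SPATA18 (1.11 ± 0.538 TPM) and GDF15 (0.35 ± 0.418 TPM). The level of FAS, 8.09 ± 1.03 TPM, rests on an exon union of 29313 bases and moves with the length used.

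**Figure D5:**
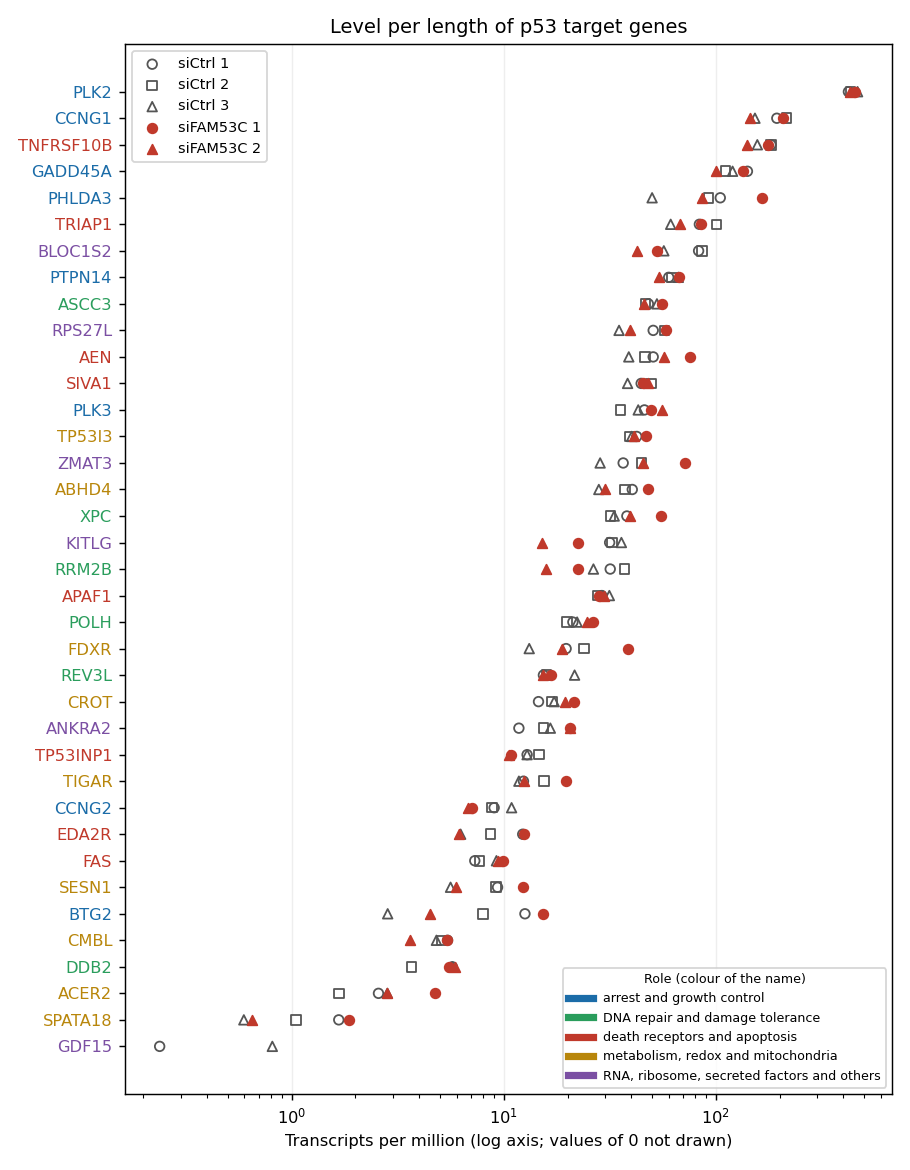
The level per length of each of the 37 members in TPM on a log axis, with 1 point per library and members ordered by their siCtrl mean. PLK2 is highest at 440 TPM and GDF15 lowest at 0.35 TPM, and the points of siCtrl and siFAM53C overlap for most members.

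Other genes of the p53 pathway, listed apart from the members, were mixed too. Of 32, 31 were tested and 19 were above 0 and 12 below, with a median log2 fold change of 0.11. In edgeR 0 were higher and 1 was lower, PMAIP1, which encodes the BH3-only protein NOXA, beside 0.404% and 3.21% of all genes. At an unadjusted p under 0.05, 4 of the 31 were higher and 2 lower, beside 6.54% and 10.5% of all genes. DESeq2 called 1 higher and 2 lower, beside 1.93% and 6.74% of the genes for which it gave an adjusted p. With the side term, chosen after seeing the data, 9 of the 31 were higher and 2 lower, beside 5.67% and 9.73% of all genes. In that fit the share called higher was thus larger than over all genes, and the share called lower was smaller. PMAIP1 had 54.2, 51.5 and 45.0 CPM in siCtrl and 29.4 and 20.8 CPM in siFAM53C (log2 fold change -0.998, standard error 0.17, edgeR adjusted p = 0.02778). Its adjusted p was 0.1236 without siCtrl 1, 0.1249 without siCtrl 2 and 0.1629 without siFAM53C 2, by edgeR.

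CDKN1A had 354, 331 and 182 CPM in siCtrl and 452 and 240 CPM in siFAM53C, with the pattern of PHLDA3 and ZMAT3: low in siCtrl 3 and siFAM53C 2, and 0.401 and 0.402 higher in siFAM53C within the sides. Its log2 fold change was 0.26 (standard error 0.34, edgeR adjusted p = 0.7739), and ran from -0.273 without siFAM53C 1 to 0.642 without siFAM53C 2. With the side term it was 0.401 and called higher (edgeR adjusted p = 0.005599). MDM2, the ubiquitin ligase of p53 and itself a target, had 96.9, 101 and 99.0 CPM in siCtrl and 102 and 79.3 CPM in siFAM53C. Its log2 fold change was -0.13 (edgeR adjusted p = 0.7035), and 0.0445 without siFAM53C 2. Of the 31 tested pathway genes, 16 (51.6%) were low in both siCtrl 3 and siFAM53C 2, beside 28.8% of all tested genes. High in both were 7 (22.6%), beside 5.56% of the members and 29.4% of all tested genes.

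The heptamer GACAAGA in 3′ UTRs went with lower values over the whole table, a link noticed only once the data had been seen. Of 1825 tested genes that hold it in their longest annotated 3′ UTR, 11.8% were called lower by edgeR, against 2.62% of 10271 genes that do not. The former have longer 3′ UTRs (median 3365 against 1690 bases), and the part of length in the link was not tested. Among the members 7 hold it, BTG2, REV3L, ASCC3, FAS, SESN1, FDXR and ACER2, with a median log2 fold change of 0.198, and 0 of them were called (0 by DESeq2 and 0 at an unadjusted p under 0.05). None of the 5 members lowest in siFAM53C, KITLG, RRM2B, BLOC1S2, CCNG2 and TP53INP1, holds it, but most tested genes do not (10271 without it, 1825 with it). Whether the siRNAs acted on these members directly was not tested, as their sequences are not given in the sources used here.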

How the data were processed

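Polyadenylated RNA of 3 siCtrl and 2 siFAM53C libraries was compared. The authors deposited raw counts per Ensembl gene. Adapters had been trimmed with cutadapt 2.10, and HISAT2 (genome hg38) and featureCounts then gave the counts (versions of both, the annotation release and the strand setting of the counting are not given in the sources used here). The methods state duplicates, and all 3 control libraries were used. Columns were matched to samples by name. Library totals from 19260124 to 25615415 counts limit precision for genes with few counts.

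Symbols, positions and exon lengths came from GENCODE release 44, which names 56105 of the 64252 identifiers and may differ from the annotation used for counting. Counts were filtered (filterByExpr, minimum count 10, minimum total 15), scaled by TMM factors and compared by the quasi-likelihood test of edgeR 4.0.16, adjusted by Benjamini-Hochberg over all 15341 tested genes (R 4.3.3, threshold 0.05). Log2 CPM used a prior count of 2. TPM was computed from counts and the union of exons. The scripts were tested on simulated data. Alternatives were DESeq2 1.42.0, limma-voom 3.58.1, other scalings and filters, a replicate block, each library left out and a term for the library side. The side was set after seeing the data, by splitting each condition along the first principal component, on which siFAM53C 1 lay midway.

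The members and lists were chosen with earlier results of these data known. All 37 members are named. Full values per library are given for those past an adjusted or unadjusted p of 0.05, those with no overlap and a log2 fold change of at least 0.5 in size, and the 3 highest per length. Of the other p53 pathway genes those given in full are CDKN1A, MDM2 and those past the threshold (1 other gene of this rule is not reported here), and the rest are given as counts. PHLDA3, FDXR, BTG2, FAS and ANKRA2 were added after their values were seen.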

Additional observations from a re-analysis of the deposited data

How the results depend on the processing

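Over 15 alternatives, 538 log2 fold changes of single members were recomputed. Of these, 467 kept direction and side of the threshold, 26 gained and 4 lost a call, and 41 changed sign, 25 of them with a library left out. For 19 members the sign held in every alternative run. For the others the values are close to 0 or rest on single libraries, and the cause was not tested.

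The count of members called lower was 1, and was 3 with DESeq2, 0 with library totals, 3 with no filter on low counts, 4 with the side term, 5 at an unadjusted p and 0 to 3 with a library left out. It was 0 without siCtrl 1, siCtrl 2 or siFAM53C 2. The count called higher was 0, and was 3 with no filter, 5 with the side term and 3 at an unadjusted p. Over all genes 493 were lower, and 888 with DESeq2, 987 with no filter, 1493 with the side term, 1604 at an unadjusted p and from 105 (without siFAM53C 1) to 740 (without siCtrl 3) with a library left out. The 62 higher genes became 254 with DESeq2, 98 with library totals, 420 with no filter, 870 with the side term, 1004 at an unadjusted p and from 5 (without siFAM53C 1) to 279 (without siCtrl 3). Of the other p53 pathway genes 1 was lower, and 2 with DESeq2, the side term or an unadjusted p, and 0 to 3 with a library left out. The 0 higher ones became 1 with DESeq2, 3 with no filter, 9 with the side term, 4 at an unadjusted p and 0 to 2 with a library left out.

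The median log2 fold change of the members, 0.0379, was 0.153 within the side of siCtrl 1 and 2, and ran from -0.189 (without siFAM53C 1) to 0.144 (without siFAM53C 2), with -0.0544 without siCtrl 3. The 8 members with a promoter half-site became 1 when a full site with a spacer of up to 13 bases and 1 mismatch was asked for.

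A replicate block was fitted by titles and by column names, which disagree, since siFAM53C replicate 2 is column 3. Deviations of siCtrl 1, 2 and 3 correlated with those of siFAM53C 1 at 0.169, 0.285 and -0.371, and with those of siFAM53C 2 at -0.169, -0.285 and 0.371. The deviations of the 2 siFAM53C libraries from their own mean are equal with opposite sign, so the second set of values restates the first. The pairs by column name were both positive (0.169 and 0.371) and the second pair by title was negative (-0.285). siFAM53C 1 goes with siCtrl 1 in both numberings, so that only the partner of siFAM53C 2 differs. For that library the values go with the column names and not with the titles. They rest on these same 5 libraries, and whether libraries of one number share a culture or a batch was not tested. With only 2 shared numbers the libraries share only a number. With the replicate block by titles, 257 genes were higher, 3 members (KITLG, RRM2B and BLOC1S2) and 3 other p53 pathway genes were lower, 2 of the latter were higher, and the median was -0.0648. Signs then changed for BTG2 (-0.322), ASCC3 (0.0196), SIVA1 (-0.0817), SESN1 (-0.176), ABHD4 (-0.109) and SPATA18 (-0.309). With the replicate block by column names, 1299 genes were lower and 594 higher, 4 members were lower (the same 3 and CCNG2) and 4 higher (ZMAT3, PHLDA3, AEN and FDXR, of which 0 were called with the block by titles), 2 other p53 pathway genes were lower and 7 higher, and DDB2 (-0.0484), TRIAP1 (0.0443) and RPS27L (0.144) changed sign. The log2 fold change of CDKN1A was 0.376 with the block by column names (edgeR adjusted p = 0.01747). With the block by titles it was -0.054 (edgeR adjusted p = 0.9039).

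Library totals turned PLK2 (0.0195), ASCC3 (0.062), EDA2R (0.0491) and RPS27L (0.0453), a minimum count of 50 turned ASCC3 (0.00669), and the side term turned EDA2R (0.0889) and RPS27L (0.082). With a library left out, ranges crossing 0 were -0.417 to 0.0506 for CCNG1, -0.346 to 0.0286 for GADD45A, -0.838 to 0.871 for BTG2, -0.253 to 0.00709 for PTPN14, -0.0465 to 0.236 for DDB2, -0.141 to 0.104 for ASCC3, -0.597 to 0.374 for EDA2R, -0.0744 to 0.131 for SIVA1, -0.343 to 0.0324 for TRIAP1 and -0.127 to 0.487 for TIGAR. They were -0.476 to 0.528 for SESN1, -0.0515 to 0.939 for FDXR, -0.0257 to 0.116 for TP53I3, -0.279 to 0.352 for ABHD4, -0.81 to 0.653 for SPATA18 and -0.316 to 0.202 for RPS27L. Levels per length moved for 12 of 37 members with the longest transcript in place of the exon union. Depth limits the lowest members, ACER2, SPATA18 and GDF15.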
